A study of Mus musculus with 16 samples.

Results

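The retinoid receptors of the liver and a pair of nuclear proteins that work with them were examined as 8 genes: Rara, Rarb and Rarg, which encode the retinoic acid receptors (RARs), Rxra, Rxrb and Rxrg, which encode the retinoid X receptors (RXRs), and Trim24 and Ncor1, which encode corepressors. The genes were chosen by name, with earlier results of these data known, and all 8 were present among the 23420 gene rows of the count table. The shares over all genes given beside them below are therefore a description and not a test of the set. Liver RNA had been sequenced from 16 male C57BL/6J wild-type mice in 4 groups of 4: FEN-HFD for 20 weeks, HFD for 20 weeks, FEN-HFD for 7 days and HFD for 7 days. HFD was a 45% high-fat diet, FEN-HFD was the same diet with 0.04% fenretinide, and every mouse was on the high-fat diet, so no lean group enters the comparisons here. Each library came from a different mouse, no mouse number was shared between groups, and the age of the mice at the start of feeding is not given in the sources used here.

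Retinoic acid, made from vitamin A, acts by binding RARs, which sit on DNA as pairs with an RXR. Without ligand the pair holds corepressors such as NCOR1, which bring histone deacetylase to the gene, and with ligand these are exchanged for coactivators. RXRs also pair with the receptors for fatty acids, bile acids, oxysterols and foreign compounds that run much of liver metabolism. TRIM24, also known as TIF1α, binds ligand-loaded RARs, and in mouse liver it restrains retinoic acid signalling. Fenretinide is a synthetic retinoid, and the comparison of FEN-HFD with HFD asks which genes of this machinery differed when it was added to the diet.

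Rarb is itself a textbook target of retinoic acid through a repeated receptor-binding sequence just before its start, so the bases before that start are shown. Receptor pairs recognise direct repeats (DR) of a 6-base half-site, and the search covered the half-site AGGTCA, its variant AGTTCA, its variant GGGTCA and its variant GGTTCA, on both strands, with 1, 2 or 5 bases between them (DR1, DR2 and DR5). RefSeq promoter windows (GRCm38.p6, 250 bases before to 50 bases after a start) were matched for all 8 genes, 17 windows in all. The 250 bases before the Rarb start are chr14:16575477-16575726 on the minus strand, printed 5′ to 3′ along the gene with the DR5 in capitals.
Rarb: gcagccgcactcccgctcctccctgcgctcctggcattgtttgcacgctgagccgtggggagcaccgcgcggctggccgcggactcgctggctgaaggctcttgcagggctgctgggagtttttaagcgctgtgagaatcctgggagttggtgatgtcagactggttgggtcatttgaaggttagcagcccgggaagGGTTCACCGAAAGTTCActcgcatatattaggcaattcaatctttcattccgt
The DR5 lies 53 to 37 bases before the start, at chr14:16575513-16575529. It was the one repeat of any of the 3 kinds in the 17 windows. Over all 32851 RefSeq promoter windows of that length, 32 (0.0974%) held a DR5, 73 (0.222%) a DR1 and 88 (0.268%) a DR2. The window belongs to an internal start, 506855 bases downstream of the outermost annotated start of Rarb, and counts per gene do not tell transcripts from different starts apart.

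The retinoic acid hydroxylase gene Cyp26a1, the listed pathway gene with the largest fold change in these livers, has a repeat of the same spacing. It is shown for comparison, as the 60 bases before its start (chr19:37697748-37697807, plus strand), with the letters of the DR5, which reads on the opposite strand, in capitals.
Cyp26a1: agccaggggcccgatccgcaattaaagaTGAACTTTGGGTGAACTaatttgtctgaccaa
Trim24 is shown because it was the other gene of the 8 that was higher on FEN-HFD. The 120 bases before its outermost start (chr6:37870691-37870810, plus strand) held no half-site, and the 90 bases ending 31 bases before an internal start (chr6:37900367-37900456, plus strand) held AGGTCA 3 times on the opposite strand, in capitals, with no DR1, DR2 or DR5.
Trim24 outermost start: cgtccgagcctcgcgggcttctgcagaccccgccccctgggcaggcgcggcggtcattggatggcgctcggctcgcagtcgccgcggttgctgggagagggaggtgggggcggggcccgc
Trim24 internal start: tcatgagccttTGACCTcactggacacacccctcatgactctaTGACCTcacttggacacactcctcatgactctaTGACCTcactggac
Single half-sites are common. They were in 9 of the 17 windows of the 8 genes (52.9%) and in 43.7% of all windows, and 3 or more were in 4 of the 17 and in 2.93% of all windows. These are not separate occurrences. Most of the 8 genes have several windows, the Rarb half-sites include those of its DR5, and the 3 of Trim24 lie in similar repeated stretches. The search for single half-sites was added after the windows had been seen. A match is a description of the letters and does not show that a receptor binds there.

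**Figure D1:**
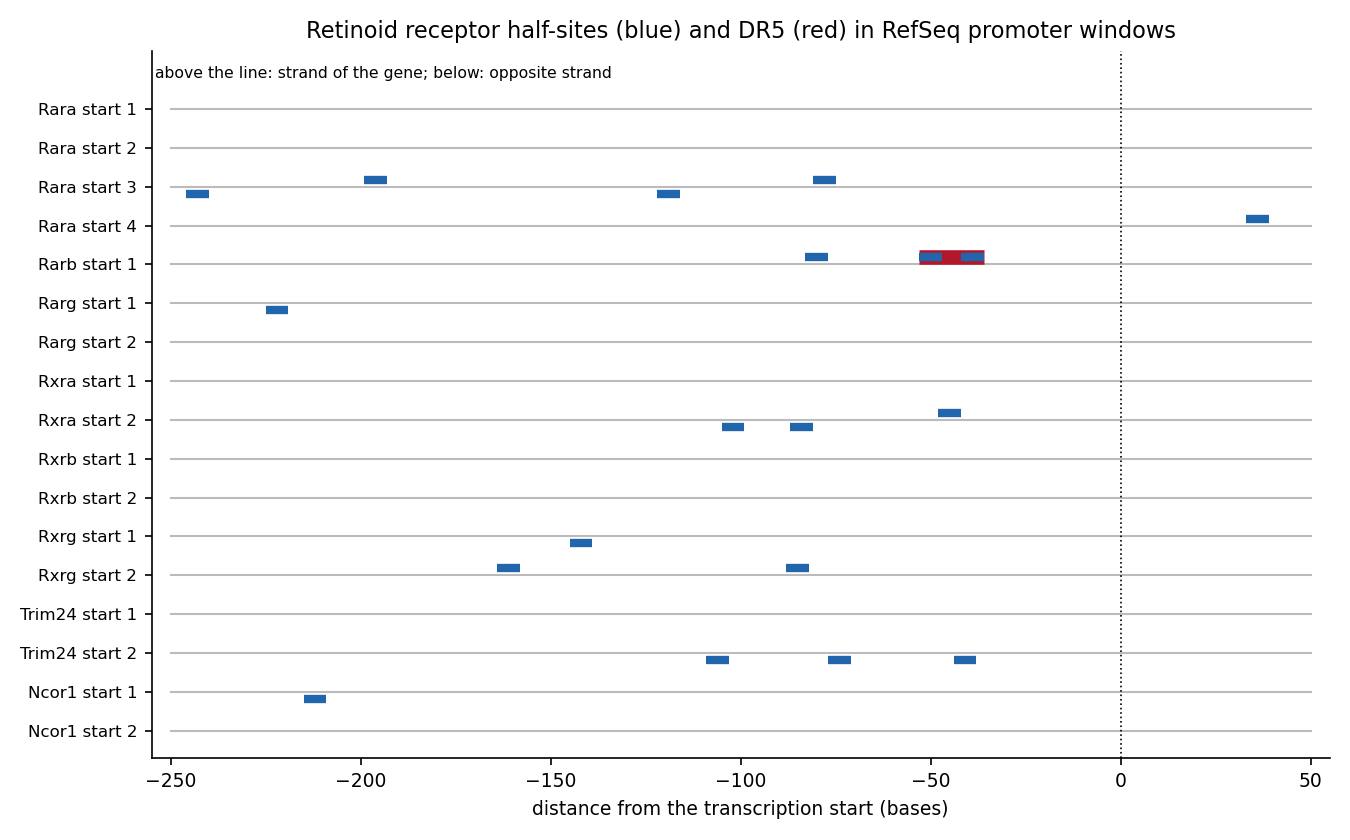
Half-sites (blue) and DR5 (red) in the 17 RefSeq promoter windows of the 8 genes, plotted by distance in bases from the transcription start; marks above a line are on the strand of the gene and marks below it on the opposite strand. Rarb carries the single DR5, between 53 and 37 bases before its start.

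Libraries held 19218230 to 32546829 counts, of which 0.0332% to 0.0712% fell on the 8 genes. The library of FEN-HFD mouse 29 at 20 weeks stood apart: the ribosomal RNA precursor Rn45s took 53.1% of its counts, against 0.466% to 1.46% in the other 15 libraries. The share also differed with the diet at 20 weeks, at 1.00% to 53.1% in FEN-HFD and 0.498% to 0.928% in HFD livers, without overlap. Hepatocyte markers were detected for all 8 genes listed in every group. Skeletal muscle markers summed to 1119 counts per 1000000 (CPM) in HFD mouse 45 at 20 weeks and to at most 3.07 CPM in every other library.

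At 20 weeks, Rarb and Trim24 were higher in FEN-HFD than in HFD livers. Of the 8 genes tested, 2 were called higher and 0 lower at an adjusted p under 0.05 (edgeR quasi-likelihood test, Benjamini-Hochberg over 13010 genes), where 1.86% of all genes tested were called. At an unadjusted p under 0.05 in edgeR there were 5 of the 8. Such values were common among all genes, where Rarg, with an edgeR p of 0.0191, ranked 1405th of 13010 (10.8%). DESeq2 and limma-voom with quality weights each called the same 2 higher and also Rxrg lower. Over all genes, DESeq2 called 413 higher and 580 lower of 17653 with a count, and limma-voom 465 and 624 of 13010. The 4 FEN-HFD mice lay entirely above or below the 4 HFD mice for 4 of the 8 genes (Rarb, Rarg and Trim24 above, Rxrg below), against 12.8% of all genes tested. The median log2 fold change of the 8 was 0.18, against 0.0093 for all genes tested.

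At 7 days the same 2 genes, Rarb and Trim24, were called higher and 0 lower by edgeR, by DESeq2 and by limma-voom, where edgeR called 0.0988% of 13157 genes tested (13 genes, all higher). No other gene of the 8 had an unadjusted p under 0.05. The groups did not overlap for these 2 genes, against 3.19% of all genes tested. Ranked by p, Trim24 was 5th and Rarb 6th of the 13157 genes. The median log2 fold change of the 8 was 0.02, against −0.01 for all genes.

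**Figure D2:**
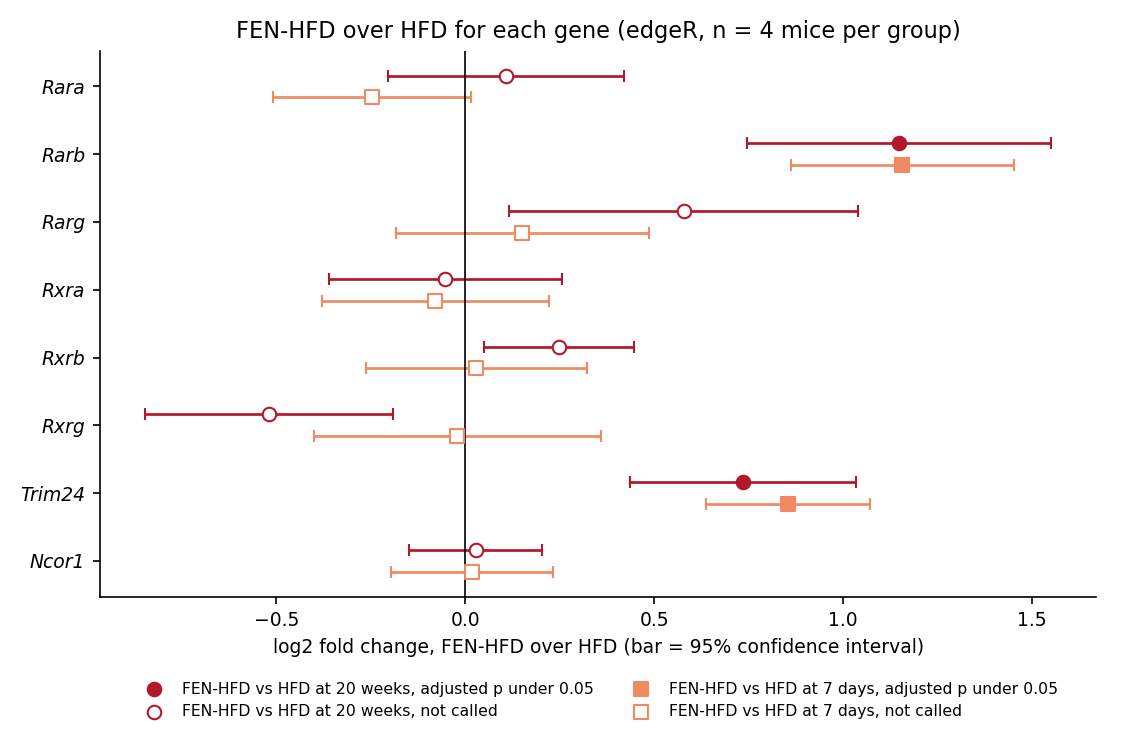
Log2 fold change of FEN-HFD over HFD for each of the 8 genes at 20 weeks (red circles) and 7 days (orange squares), with 95% confidence intervals from edgeR; filled symbols have an adjusted p under 0.05. Only Rarb (1.15 and 1.16) and Trim24 (0.73 and 0.85) are filled at either time.

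RARβ, the receptor encoded by Rarb (chr14:16430839-17082331, minus strand), is the retinoic acid receptor whose gene is most readily induced by its own ligand. At 20 weeks Rarb stood at 14.1, 12.8, 12.1 and 17.6 CPM in FEN-HFD mice 21, 22, 24 and 29, against 6.68, 8.18, 5.50 and 4.97 CPM in HFD mice 25, 28, 33 and 45. The lowest FEN-HFD mouse was 1.48-fold above the highest HFD mouse. The log2 fold change was 1.15 (SE 0.18, 95% confidence interval 0.75 to 1.55, adjusted p = 0.0168, edgeR), a 2.22-fold higher level. At 7 days Rarb stood at 13.6, 13.5, 15.4 and 11.6 CPM in FEN-HFD mice 61, 62, 65 and 66, against 5.42, 5.34, 6.87 and 6.69 CPM in HFD mice 142, 143, 144 and 146. Again no FEN-HFD mouse reached down to the HFD range, and the lowest was 1.69-fold above the highest HFD mouse. The log2 fold change at 7 days was 1.16 (SE 0.13, interval 0.86 to 1.45, edgeR adjusted p = 0.00714).

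The Rarb level behind these values was low, 123 to 496 counts per library. Leaving out FEN-HFD mouse 21 or HFD mouse 25 took the 20-week adjusted p of Rarb to 0.0692 or 0.0654 in edgeR, with log2 fold changes of 1.15 and 1.17. Without FEN-HFD mouse 29, the library rich in Rn45s, the 20-week log2 fold change was 1.04 (adjusted p = 0.0130, edgeR). At 7 days the call held with each of the 8 mice left out. Of the annotated exon bases of Rarb, 34.1% (1793 bases) also lie in exons of Top2b on the opposite strand, and whether reads were counted by strand is not given in the sources used here, so a share of Top2b reads in the Rarb count was not tested. Top2b, which encodes a DNA topoisomerase, stood at 103 ± 11.4 CPM in FEN-HFD and 91.0 ± 6.99 CPM in HFD livers at 20 weeks (SD, n = 4 each; log2 fold change 0.18, edgeR adjusted p = 0.384), and its log2 fold change at 7 days was 0.14 (edgeR adjusted p = 1.00).

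Rara (chr11:98927800-98974942, plus strand) encodes RARα, the most widely expressed of the RARs. At 20 weeks Rara was at 16.5, 14.0, 10.8 and 17.2 CPM in FEN-HFD mice and at 13.9, 12.6, 13.7 and 13.9 CPM in HFD mice. The FEN-HFD mice spread on both sides of the HFD mice, and the log2 fold change of 0.11 (SE 0.14, interval −0.21 to 0.42, edgeR adjusted p = 0.724) was within the spread. At 7 days Rara averaged 11.3 ± 1.51 CPM in FEN-HFD and 13.4 ± 1.12 CPM in HFD livers (SD, n = 4 each), a log2 fold change of −0.25 (interval −0.51 to 0.02, edgeR adjusted p = 1.00).

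Rarg (chr15:102234938-102257522, minus strand) encodes RARγ, best known for its roles in skin and skeleton. At 20 weeks Rarg was at 5.24, 5.20, 4.82 and 8.01 CPM in FEN-HFD mice 21, 22, 24 and 29, and at 4.56, 4.31, 3.04 and 3.47 CPM in HFD mice 25, 28, 33 and 45. The groups did not overlap, but the highest HFD and the lowest FEN-HFD mouse were close. The log2 fold change of 0.58 (SE 0.21, interval 0.12 to 1.04) did not pass the threshold (edgeR adjusted p = 0.177), and without mouse 29 it was 0.41 (edgeR adjusted p = 0.193). At 7 days the groups overlapped, at 5.11 ± 0.784 CPM in FEN-HFD and 4.62 ± 0.590 CPM in HFD livers (SD, n = 4 each), with a log2 fold change of 0.15 (edgeR adjusted p = 1.00).

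Of the RXR genes, none was called by edgeR in either comparison of FEN-HFD with HFD. Rxra (chr2:27676445-27763319, plus strand) encodes RXRα, the main RXR of hepatocytes. It averaged 377 ± 23.5 CPM in FEN-HFD and 391 ± 71.2 CPM in HFD livers at 20 weeks, and 403 ± 68.3 and 427 ± 37.3 CPM in FEN-HFD and HFD livers at 7 days (SD, n = 4 each). The intervals of its log2 fold change ran from −0.36 to 0.26 at 20 weeks and from −0.38 to 0.22 at 7 days. Rxra was thus the member measured with the most counts, 3958 to 14893 per library, and both intervals included 0.

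Rxrb (chr17:34031812-34038403, plus strand) encodes RXRβ, which is found in most tissues. At 20 weeks Rxrb was at 30.6, 32.8, 26.5 and 33.3 CPM in FEN-HFD mice and at 25.3, 25.3, 27.1 and 25.8 CPM in HFD mice. The ranges overlapped through FEN-HFD mouse 24 and HFD mouse 33, and the log2 fold change of 0.25 (SE 0.089) had an unadjusted p of 0.0190 and an adjusted p of 0.177 in edgeR. At 7 days its log2 fold change was 0.03 (interval −0.26 to 0.32, edgeR adjusted p = 1.00).

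Rxrg (chr1:167598362-167639623, plus strand) encodes RXRγ, which is best known from muscle and brain. At 20 weeks Rxrg was at 4.49, 5.40, 3.82 and 4.99 CPM in FEN-HFD mice 21, 22, 24 and 29, against 6.26, 7.16, 7.29 and 6.02 CPM in HFD mice 25, 28, 33 and 45. Every FEN-HFD mouse lay below every HFD mouse. The log2 fold change was −0.52 (SE 0.15, interval −0.85 to −0.19), with an unadjusted p of 0.00560 and an adjusted p of 0.102 in edgeR, and adjusted p-values of 0.0370 in DESeq2 and 0.0494 in limma-voom. At 7 days Rxrg was at 3.0, 3.70, 3.31 and 4.98 CPM in FEN-HFD mice and at 3.70, 3.75, 3.77 and 3.98 CPM in HFD mice, and the groups overlapped (log2 fold change −0.02, interval −0.40 to 0.36, edgeR adjusted p = 1.00). The library with skeletal muscle markers, HFD mouse 45, had the lowest Rxrg level of the HFD mice at 20 weeks. Without it the 20-week log2 fold change was −0.57 (edgeR adjusted p = 0.122).

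Trim24 (chr6:37870811-37968445, plus strand) was at 52.0, 54.1, 61.3 and 50.5 CPM in FEN-HFD mice 21, 22, 24 and 29 at 20 weeks, against 30.9, 42.2, 30.4 and 27.5 CPM in HFD mice 25, 28, 33 and 45. HFD mouse 28 was nearest to the FEN-HFD mice, the lowest of which was 1.20-fold above it. The log2 fold change was 0.73 (SE 0.13, interval 0.44 to 1.03, edgeR adjusted p = 0.0278), a 1.66-fold higher level. At 7 days Trim24 was at 36.9, 33.2, 42.5 and 35.8 CPM in FEN-HFD mice 61, 62, 65 and 66, against 18.5, 22.2, 20.6 and 21.0 CPM in HFD mice 142, 143, 144 and 146. The groups were further apart than at 20 weeks, with the lowest FEN-HFD mouse 1.49-fold above the highest HFD mouse. The log2 fold change at 7 days was 0.85 (SE 0.099, interval 0.64 to 1.07, edgeR adjusted p = 0.00714).

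The Trim24 call at 20 weeks was near its threshold. In edgeR its adjusted p was 0.0843, 0.0709 or 0.0726 without FEN-HFD mouse 21, 22 or 24, and 0.105 or 0.0687 without HFD mouse 25 or 33, while the log2 fold change stayed between 0.66 and 0.88 with any one mouse left out. Without FEN-HFD mouse 29 it was 0.77 (edgeR adjusted p = 0.0222). At 7 days the call held with each of the 8 mice left out.

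Ncor1 (chr11:62315663-62457414, minus strand), the scaffold of the nuclear receptor corepressor complex, differed little. It averaged 133 ± 6.55 CPM in FEN-HFD and 130 ± 3.98 CPM in HFD livers at 20 weeks, and 123 ± 12.6 and 122 ± 9.45 CPM in FEN-HFD and HFD livers at 7 days (SD, n = 4 each). The intervals of its log2 fold change, −0.15 to 0.20 at 20 weeks and −0.20 to 0.23 at 7 days, were the narrowest of the 8 genes at both durations.

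**Figure D3:**
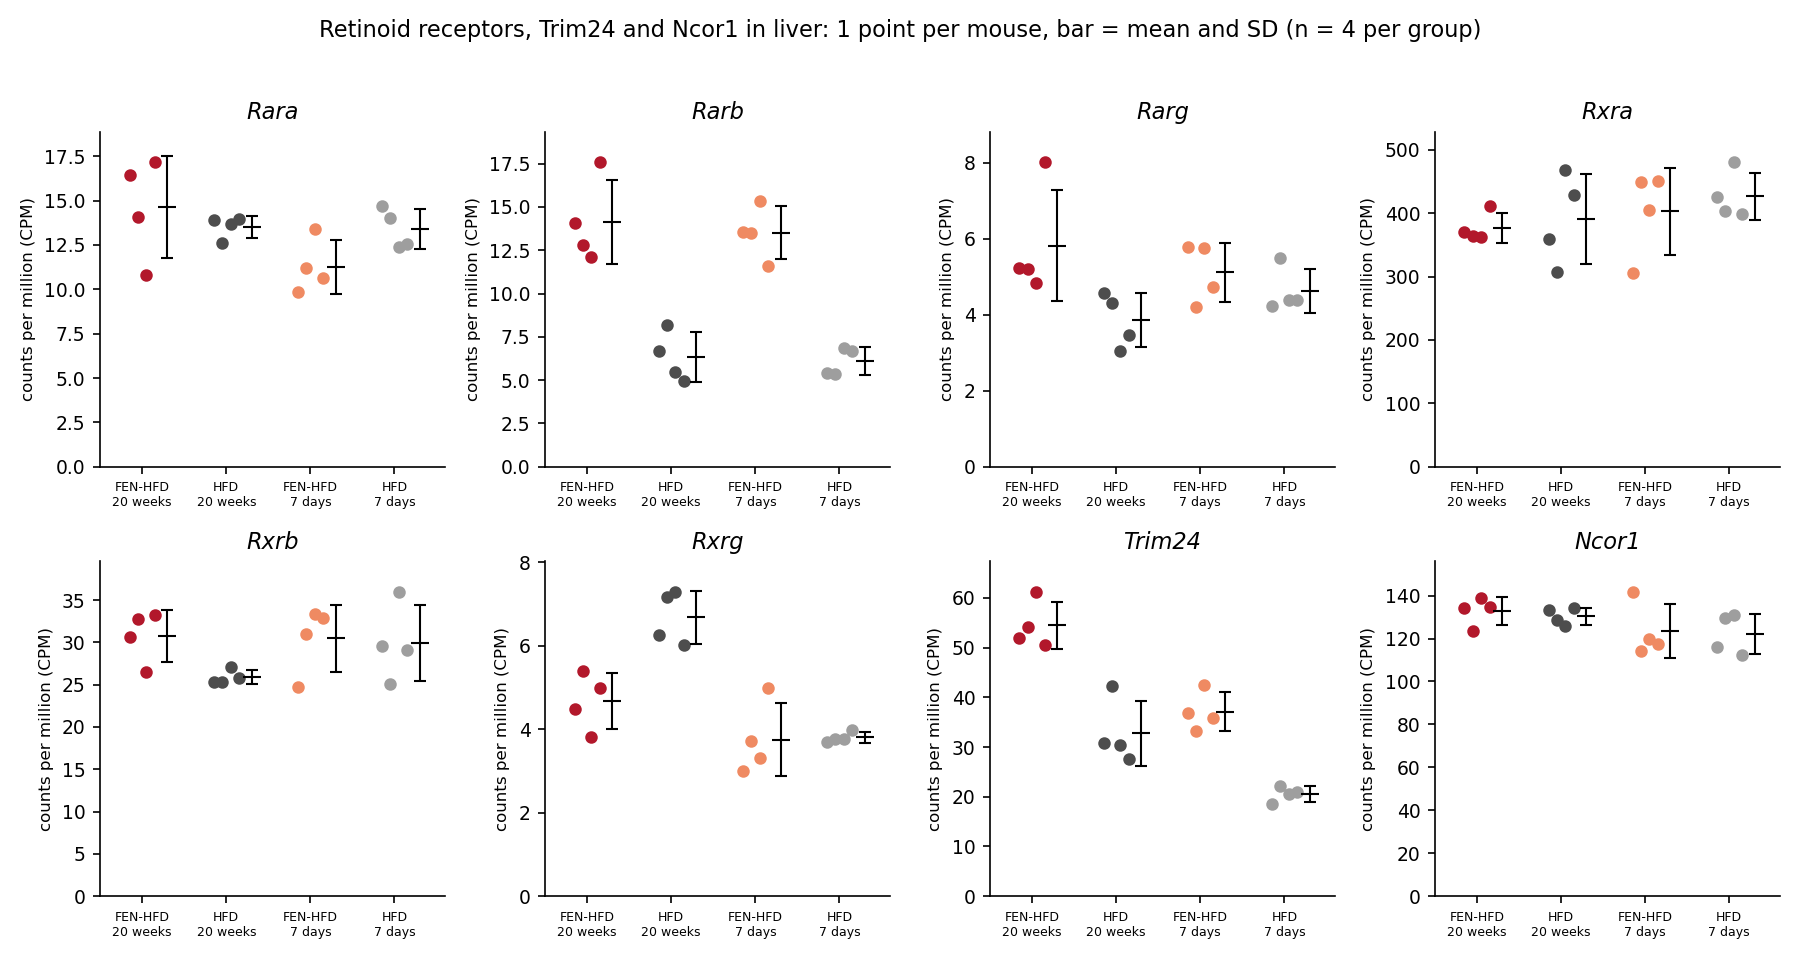
Level of each of the 8 genes in CPM, with 1 point per mouse and the mean and SD of each group of 4; FEN-HFD is left of HFD within each duration, and every axis starts at 0. The Rarb and Trim24 points of FEN-HFD lie above those of HFD at both durations, and the 20-week Rxrg points of FEN-HFD lie below those of HFD.

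The difference between the FEN-HFD effects at 20 weeks and at 7 days was tested as an interaction over all 16 libraries. None of the 8 genes was called by edgeR, where 0.0299% of 13387 genes were, and none by DESeq2 or limma-voom. At an unadjusted p under 0.05 there was 1 member by each of the tools. By edgeR this was Rxrg, whose 20-week effect minus its 7-day effect was −0.49 on the log2 scale (interval −0.96 to −0.03), with an unadjusted p of 0.0398 and an adjusted p of 0.555. Rxrg ranked 960th of the 13387 genes by p (7.17%). For Rarb the 20-week effect minus the 7-day effect was −0.01 on the log2 scale (interval −0.48 to 0.47, edgeR adjusted p = 0.996), and for Trim24 it was −0.12 (interval −0.48 to 0.24, edgeR adjusted p = 0.879). The intervals leave room for a difference between durations of about the size of their bounds.

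Levels were compared between genes only per length, as CPM per kilobase of annotated exon. Rxra was first in every group, at 69.0 ± 4.30, 71.6 ± 13, 73.7 ± 12.5 and 78.1 ± 6.83 CPM per kilobase in FEN-HFD at 20 weeks, HFD at 20 weeks, FEN-HFD at 7 days and HFD at 7 days (SD, n = 4 each). Ncor1 came next, 6.65- to 8.20-fold below Rxra, and Rxrb after it. The ranges of Ncor1 and Rxrb overlapped in HFD mice at 7 days and in no other group. Rarg was last in each group, at 1.37, 0.903, 1.20 and 1.09 CPM per kilobase in the same order of groups. In every group its range overlapped that of the gene next above it, Rxrg in FEN-HFD and Rarb in HFD livers.

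The middle of the order differed between the groups. In FEN-HFD livers at 20 weeks the ranges of Rxrb and Trim24 overlapped. In FEN-HFD livers Trim24 lay above Rara at both durations, 1.91-fold at 20 weeks and 1.68-fold at 7 days, and the ranges of these genes did not overlap. In HFD livers Trim24 lay 1.24-fold above Rara at 20 weeks, and Rara 1.27-fold above Trim24 at 7 days, again without overlap. Rara and Rarb overlapped in FEN-HFD livers at both durations, whereas in HFD livers Rxrg stood between them and did not overlap with Rarb.

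Within the RAR family, Rarb made up 36.4 ± 1.82% of the summed level per length in FEN-HFD and 23.0 ± 4.03% in HFD livers at 20 weeks, and 40.4 ± 1.66% and 21.8 ± 3.56% in FEN-HFD and HFD livers at 7 days (SD, n = 4 each). The lowest FEN-HFD share, 34.8%, was above the highest HFD share, 28.5%. Rara made up 45.2% in FEN-HFD and 59.8% in HFD livers at 20 weeks, and 40.7% and 57.8% in FEN-HFD and HFD livers at 7 days. The sum of the RAR genes was 7.40 ± 1.37 CPM per kilobase in FEN-HFD and 5.20 ± 0.327 in HFD livers at 20 weeks, and 6.35 ± 0.685 and 5.31 ± 0.167 in FEN-HFD and HFD livers at 7 days. Rxra was 87.6% to 89.5% of the RXR sum in the 4 groups. The shares are a description, with no test of their own. The exon bases that Rarb shares with Top2b count in its length, and their effect on its level per length and its share was not tested.

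**Figure D4:**
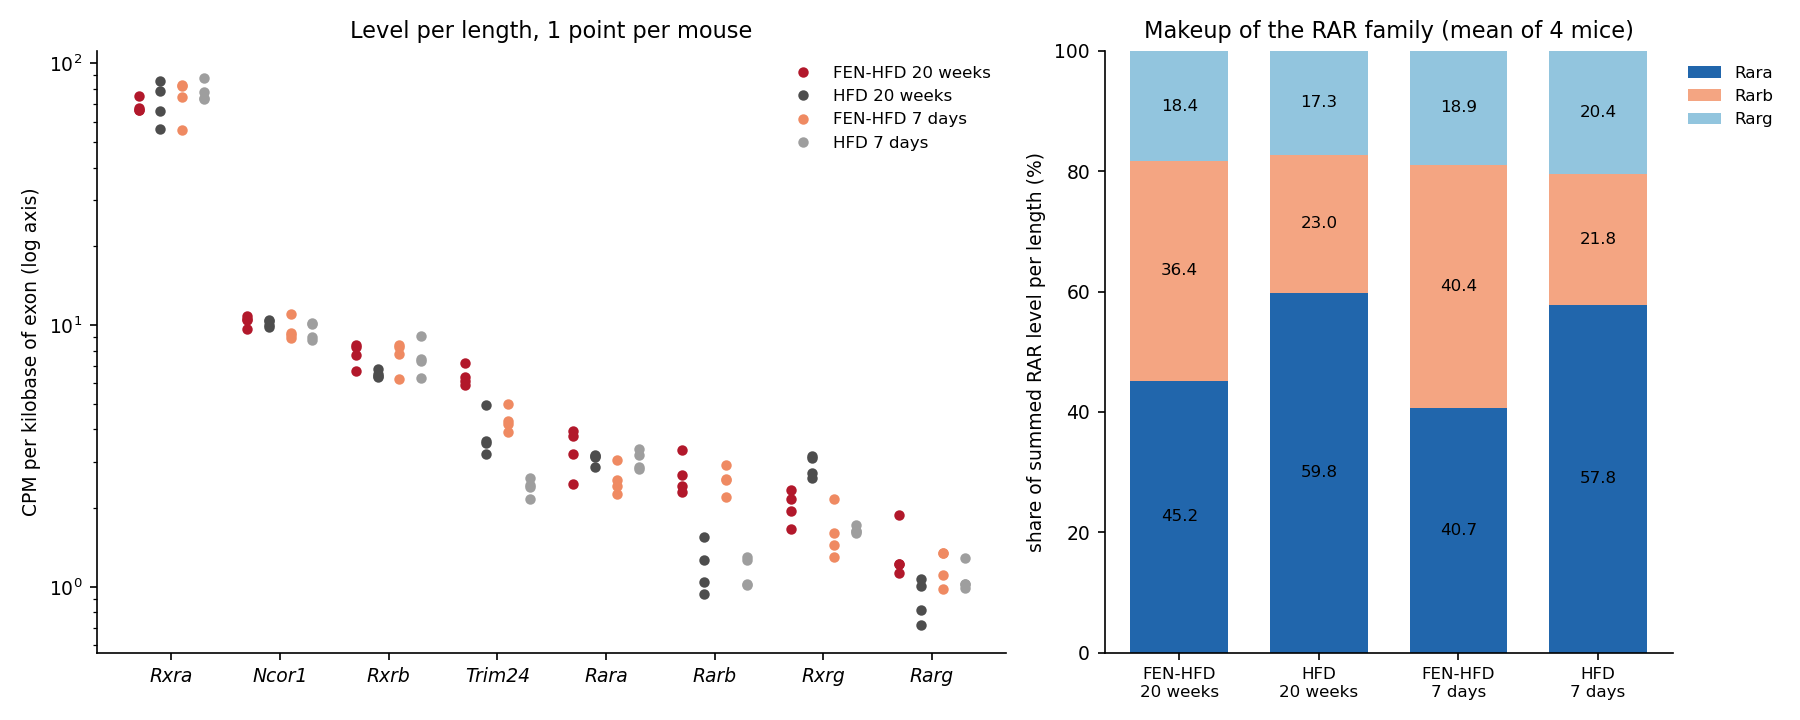
Left, level of each gene per kilobase of annotated exon in CPM, on a log axis, with 1 point per mouse in the 4 groups. Right, mean share (%) of Rara, Rarb and Rarg in the summed RAR level per length of each group of 4 mice, where Rarb is at 36.4% in FEN-HFD and 23.0% in HFD at 20 weeks, and at 40.4% in FEN-HFD and 21.8% in HFD at 7 days.

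Between the durations, Trim24 was higher at 20 weeks than at 7 days on both diets. Duration, age and feeding cohort cannot be told apart in this comparison, and each duration comparison shares its mice with the diet comparisons above. On FEN-HFD 1 of the 8 genes was called higher and 0 lower by edgeR, DESeq2 and limma-voom, where edgeR called 1.18% of 12949 genes, and 2 of the 8 had an unadjusted p under 0.05. This was Trim24, at 54.5 ± 4.76 CPM at 20 weeks and 37.1 ± 3.90 CPM at 7 days (SD, n = 4 each; log2 fold change 0.55, SE 0.10, edgeR adjusted p = 0.0290), and it was also the one gene of the 8 without overlap, against 6.55% of all genes. The call was lost in edgeR without FEN-HFD mouse 21, 22 or 24 of the 20-week group or mouse 61, 62 or 66 of the 7-day group, with adjusted p-values of 0.0698 to 0.116.

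On HFD alone, 2 of the 8 genes were higher at 20 weeks and 0 lower by edgeR, DESeq2 and limma-voom, where edgeR called 7.51% of 13255 genes. Both, Trim24 and Rxrg, did not overlap between the durations, against 17% of all genes. Trim24 averaged 32.7 ± 6.50 CPM at 20 weeks and 20.6 ± 1.57 CPM at 7 days (SD, n = 4 each; log2 fold change 0.66, SE 0.14, edgeR adjusted p = 0.0204), and the call was lost without HFD mouse 25, 142 or 144 (edgeR adjusted p 0.0506, 0.0639 and 0.0523). Rxrg averaged 6.68 ± 0.637 CPM at 20 weeks and 3.80 ± 0.124 CPM at 7 days (SD, n = 4 each; log2 fold change 0.80, SE 0.12, edgeR adjusted p = 0.00572), and this call held with each mouse left out. The same Rxrg comparison on FEN-HFD gave a log2 fold change of 0.31 (interval −0.12 to 0.74, edgeR adjusted p = 0.742), and the interaction above is the test of the difference. Rarb did not pass the test between durations on either diet, with log2 fold changes of 0.05 on FEN-HFD and 0.05 on HFD (edgeR adjusted p 0.974 and 0.887).

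Other genes of the pathway were taken from lists of known roles. Of 10 retinoic acid inducible genes, 5 had enough counts to be tested, and 3 were called higher in FEN-HFD at 20 weeks and 0 lower by edgeR. The median log2 fold change was 1.91, against 0.0093 for all genes tested. Of all genes tested, edgeR called 1.86% at 20 weeks and 0.0988% at 7 days. DESeq2 and limma-voom each called 4 of the list higher at 20 weeks and 0 lower. Cyp26a1, which clears retinoic acid, averaged 303 ± 12.8 CPM in FEN-HFD and 4.15 ± 0.579 CPM in HFD livers (SD, n = 4 each; log2 fold change 6.19, edgeR adjusted p = 8.8e-09). Cyp26b1, of the same enzyme family, averaged 21.7 ± 3.12 CPM in FEN-HFD and 5.77 ± 2.16 CPM in HFD livers (SD, n = 4 each; log2 fold change 1.91, edgeR adjusted p = 0.0168). At 7 days 1 of the 5 was called, Cyp26a1, at 230 ± 28.4 CPM in FEN-HFD and 5.02 ± 3.48 CPM in HFD livers (SD, n = 4 each; log2 fold change 5.54, edgeR adjusted p = 0.0320), and DESeq2 and limma-voom each called 2, with Cyp26b1 as the other.

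The other corepressors and the coactivators of the receptors were not called by edgeR. Of 8 genes of the corepressor complex edgeR called 0 at either time, with 1 at an unadjusted p under 0.05 each time. The smallest p was that of Sin3a, a histone deacetylase scaffold, at 20 weeks (log2 fold change 0.31, edgeR adjusted p = 0.0661), and of Tbl1xr1, an exchange factor for corepressors, at 7 days (0.26, edgeR adjusted p = 0.579). DESeq2 called Sin3a higher at 20 weeks, limma-voom called Sin3a higher and Nrip1 lower, and neither called any at 7 days. Of 10 coactivators edgeR, DESeq2 and limma-voom called 0 at either time. At an unadjusted p under 0.05 edgeR had 2 coactivators at 20 weeks, led by Ncoa3 (log2 fold change 0.34, adjusted p = 0.149), and 0 at 7 days, where Prmt1 had the smallest p (log2 fold change 0.21, edgeR adjusted p = 1.00).

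The relatives of Trim24 in the TIF1 family, Trim28 and Trim33, were tested, and Trim66 had too few counts for edgeR. Neither was called by edgeR, DESeq2 or limma-voom at either time, and edgeR gave neither an unadjusted p under 0.05. Trim28, a corepressor of zinc finger proteins, had log2 fold changes of 0.22 at 20 weeks and 0.19 at 7 days (edgeR adjusted p 0.373 and 1.00). Mouse TRIM24 is also known to restrain interferon signalling in liver. Of 17 interferon-stimulated genes edgeR called 0 at either time, with 1 at an unadjusted p under 0.05 at 20 weeks and 2 at 7 days. The smallest p was that of Psmb8, an immunoproteasome subunit gene, at 20 weeks (log2 fold change 0.68, edgeR adjusted p = 0.192) and of Stat2, a signal transducer, at 7 days (−0.30, edgeR adjusted p = 0.964). DESeq2 called none of these genes at either time, and limma-voom called 1 lower, Oas1a, at 20 weeks. For FEN-HFD against HFD the list median log2 fold change was 0.00079 at 20 weeks and −0.48 at 7 days. Over all genes tested it was 0.0093 and −0.01. Between the durations on FEN-HFD, edgeR called 3 of the 17 lower at 20 weeks, Ifit1, Ifit2 and Rsad2. On HFD it also called 3 lower, Irf9, Isg15 and Mx1. Between the durations the list medians were −0.63 on FEN-HFD and −1.09 on HFD, against 0.01 and −0.01 for all genes tested. DESeq2 called 6 and 7 lower on these diets, and limma-voom 11 and 1. Any link with Trim24, higher at 20 weeks on both diets, was not tested.

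Of 13 receptors that pair with RXR, 11 were tested by edgeR and 0 called at either time, with 0 at an unadjusted p under 0.05, and DESeq2 and limma-voom called none. The smallest p at 20 weeks was that of Ppara, the fatty acid receptor, with a log2 fold change of −0.21 (edgeR adjusted p = 0.312), and at 7 days that of Pparg, the receptor of the adipocyte programme, with 0.57 (edgeR adjusted p = 1.00). Of 7 genes for retinoic acid synthesis and carriers, 4 were tested and 0 called by edgeR at either time. Aldh1a1, a retinal dehydrogenase, had the smallest p at 20 weeks (log2 fold change −0.63, unadjusted p under 0.05, edgeR adjusted p = 0.143), and both DESeq2 and limma-voom called it lower. The smallest p at 7 days was that of Fabp5, a carrier of retinoic acid and fatty acids (log2 fold change 0.48, edgeR adjusted p = 1.00).

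Over the 16 mice, the genes whose log2 CPM varied most like Rarb were Raet1e (Pearson r 0.963), Lrat (0.943), Raet1d (0.940), Cyp26a1 (0.922) and Adam11 (0.888), among 11980 candidates averaging 1 CPM or more. Lrat encodes the enzyme that esterifies retinol for storage, and Raet1d and Raet1e are retinoic acid early transcripts, near-identical copies between which reads may be split. For Trim24 the list was Smpd3 (0.903), Morc3 (0.888), Raet1d (0.884), Gm14322 (0.876) and Ddb2 (0.874), and r between Rarb and Trim24 was 0.785. These values describe 16 mice that fall into 4 groups, so they follow the diet and duration differences above, and no p is given.

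Rarb and Lrat are expressed by stellate cells of the liver, and in whole tissue fewer cells of a type cannot be told apart from less RNA per cell. The 10 stellate cell markers, all detected in each group, summed to 593 to 846 CPM in FEN-HFD and 573 to 741 CPM in HFD livers at 20 weeks, and to 598 to 702 and 515 to 677 CPM in FEN-HFD and HFD livers at 7 days. These ranges overlapped at both durations. At 20 weeks edgeR called 2 of the 10 higher and 0 lower, among them Lrat (log2 fold change 0.75, adjusted p = 0.0357). DESeq2 also called 2 higher and 0 lower, and limma-voom 2 higher and 1 lower, Pdgfrb, a growth factor receptor gene, whose log2 fold change was −0.50 in edgeR (adjusted p = 0.249). At 7 days edgeR called 1 of the 10, Lrat (0.92, edgeR adjusted p = 0.00334), at 90.9, 73.9, 81.2 and 70.6 CPM in FEN-HFD mice against 43.6, 42.7, 39.0 and 42.9 CPM in HFD mice.

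Other markers moved with the diet at 20 weeks, and their part in the Rarb and Trim24 values was not tested. Kupffer cell and macrophage markers, 8 of 8 detected, summed to 499 to 1190 CPM in FEN-HFD and 394 to 461 CPM in HFD livers, without overlap, and 1 of 8, the scavenger receptor gene Marco, was called higher by edgeR, while DESeq2 and limma-voom each called 2 higher, Marco and Timd4. Without FEN-HFD mouse 29 the FEN-HFD sums were 499 to 572 CPM. Hepatocyte markers summed to 52386 to 65326 CPM in FEN-HFD and 67691 to 78603 CPM in HFD livers, also without overlap. The albumin gene Alb was most of that sum, at 28136 to 43325 CPM in FEN-HFD and 46887 to 54140 CPM in HFD livers. Gene by gene, 2 of the 8 lay entirely above and 2 entirely below, with a median log2 fold change of 0.19. Of the 8, edgeR called 0 (4 at an unadjusted p under 0.05), DESeq2 2 higher and 2 lower, and limma-voom 1 higher and 2 lower. Of the sinusoidal endothelial (8 genes), cholangiocyte (6) and lymphocyte (4 tested) markers, edgeR, DESeq2 and limma-voom called 0, with 0, 2 and 0 at an unadjusted p under 0.05 in edgeR. Adipocyte markers summed to 67.2 to 167 CPM in FEN-HFD and 25.3 to 40.4 CPM in HFD livers, without overlap. Of the 2 adipocyte markers tested, edgeR called 1 higher, the adipsin gene Cfd (log2 fold change 2.81, adjusted p = 0.0380), as did DESeq2 and limma-voom, and 2 of the 6 markers had no count in any FEN-HFD liver at 20 weeks. Rn45s and the mitochondrial synthetase gene Lars2, taken as a sign of library quality, summed to 9413 to 1171890 CPM in FEN-HFD and 4679 to 8891 CPM in HFD livers, without overlap. CPM is relative to the TMM-scaled library size, so the sum in mouse 29 can exceed 1000000. Both had an unadjusted p under 0.05 in edgeR, and edgeR, DESeq2 and limma-voom called 0 of the 2.

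At 7 days some of these sums moved with the diet and others overlapped, and their part in the Rarb and Trim24 values was not tested there either. The sum of Rn45s and Lars2 was 6215 to 6972 CPM in FEN-HFD and 4578 to 6061 CPM in HFD livers, without overlap. That of the adipocyte markers was 9.20 to 11.4 CPM in FEN-HFD and 6.17 to 8.96 CPM in HFD livers, also without overlap. Of the 2 adipocyte markers edgeR tested, 0 had an unadjusted p under 0.05, and each overlapped between the diets. EdgeR, DESeq2 and limma-voom called 0, and 2 of the 6 had no count in any FEN-HFD liver at 7 days. The Kupffer cell sum (544 to 702 CPM in FEN-HFD and 496 to 1097 CPM in HFD) and the hepatocyte sum (59956 to 68549 CPM in FEN-HFD and 64878 to 81372 CPM in HFD) overlapped. Markers also moved between the durations, and their part in the Trim24 and Rxrg values was not tested. On HFD edgeR called 3 of 8 hepatocyte, 2 of 8 Kupffer cell and 1 of 6 cholangiocyte markers lower at 20 weeks. On FEN-HFD it called 1 of 8 hepatocyte markers lower, Cps1, and 1 of 8 Kupffer cell markers higher, Marco. The 2 adipocyte markers tested were called higher at 20 weeks on both diets, and edgeR called 0 stellate, sinusoidal endothelial or lymphocyte markers. Of these 3 lists, DESeq2 called 2 stellate markers higher and 1 sinusoidal endothelial marker lower on HFD. On FEN-HFD it called 1 sinusoidal endothelial marker lower, and limma-voom called 2 sinusoidal endothelial markers and 1 lymphocyte marker lower.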

How the data were processed

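RNA from whole livers had been sequenced from total RNA libraries depleted of ribosomal RNA. The authors deposited a table of raw counts per gene for the 16 libraries, and the submitters' processing notes name STAR 2.0, DESeq2 1.6 and mm10. The counting program, its annotation and its strand setting are not given in the sources used here. Samples were grouped by their labels. Counts were tested with edgeR 4.0.16 (TMM scaling, filterByExpr, glmQLFit and glmQLFTest with robust estimation, two-sided, Benjamini-Hochberg adjustment, threshold 0.05), pair by pair, and over all 16 libraries for the interaction. All 8 genes passed the filter on low counts in every comparison. Levels are CPM on a single TMM scale over the 16 libraries, and log CPM used a prior count of 2. The 95% intervals are those of the fitted log2 fold change. Lengths and positions were taken from GENCODE vM21 and RefSeq on GRCm38 (mm10), where exon lengths were to come from RefSeq and the GENCODE exon union was used instead. Promoter letters are from RefSeq. The scripts were tested on simulated data.

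Named genes were the 8 members and, from each list, the called genes (at most 4) or else the one with the smallest p, and 5 genes by likeness. Genes outside this rule that another tool called (Alb, Nrip1, Oas1a, Pdgfrb, Timd4) and Top2b were named after their values were seen. Of 133 listed symbols 132 were found by symbol and 1 (Adgre1) by a synonym. A gene called in the lists is not reported here by name. The members and lists were chosen with earlier results of these data known. Other settings tried were DESeq2 1.42.0, voom with sample weights from limma 3.58.1 (R 4.3.3), other scaling and filters, removal of Rn45s and Lars2, one fit of all groups, and each mouse left out. The labels say that samples are separate mice, and the tests weigh a difference between groups against the spread between mice. Intervals give the uncertainty of the fitted log2 fold change. The totals of 19218230 to 32546829 counts per library limit the precision of genes with few counts.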

Additional observations from a re-analysis of the deposited data

Results flagged for a closer look

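Within the 32 sets of 4 mice formed by 8 genes in 4 groups, 2 had a mouse far from the other 3, both for Rarg, and chance alone marks about 1 set in 20. Rarg was at 8.01 CPM in FEN-HFD mouse 29 at 20 weeks, the library with 53.1% of its counts on Rn45s, against 4.82 to 5.24 CPM in the other 3 mice of its group. It was at 5.50 CPM in HFD mouse 143 at 7 days, against 4.23 to 4.38 CPM in the other 3. Kupffer cell and macrophage markers summed highest in these same mice within their groups, at 1190 CPM in mouse 29 and 1097 CPM in mouse 143, and any link with Rarg was not tested.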

How the results depend on the processing

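No paired analysis was possible because no mouse number was shared between groups. Of 696 alternative values of the fold changes of the 8 genes, 622 kept their direction and their side of the threshold, 16 no longer passed it, 2 newly passed it and 56 changed sign, 0 of them for a value called in either setting. The cause was not tested for any of these. The 20-week calls of Rarb and Trim24 held in every alternative that kept all mice, and at 7 days in every alternative run.

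By DESeq2 and by limma-voom, 1 member (Rxrg) was lower at 20 weeks. Over all genes at 20 weeks, DESeq2 called 413 higher and 580 lower in FEN-HFD than HFD, limma-voom called 465 and 624, and edgeR 254 and 407 with all 16 libraries fitted together, against 100 and 142 in the edgeR test reported. At 7 days DESeq2 called 58 higher and 31 lower, limma-voom called 26 and 8, and edgeR called 1, 2 and 2 lower with RLE scaling, with no filter and with all libraries fitted together. For the interaction DESeq2 called 48 higher and 67 lower, limma-voom called 32 and 41, and edgeR called 3 and 8 with upper-quartile scaling, and 2 higher with Rn45s and Lars2 removed. Between durations, DESeq2 called 263 higher and 149 lower on FEN-HFD and 1053 higher and 692 lower on HFD, and limma-voom called 502 and 392 on FEN-HFD.

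Among members, signs changed only for log2 fold changes that were not called. With limma-voom these were −0.0087 for Ncor1 at 20 weeks, 0.0033 for Rxra and 0.0071 for Rxrg at 7 days, −0.054 for Rxra and −0.0052 for Ncor1 in the interaction, and −0.039 for Rarb and −0.055 for Rxrb between durations on FEN-HFD. Rxrb on FEN-HFD between durations was also −0.0023 by DESeq2, −0.0087 with no filter and −0.0012 without Rn45s and Lars2. Rara on HFD between durations was 0.0022 with RLE scaling, 0.0060 with upper-quartile scaling, 0.0022 with at least 10 counts in every library and 0.011 with all libraries fitted together.

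With each mouse left out in turn, 0 to 2 members were higher in FEN-HFD than HFD at 20 weeks, 0 to 1 higher at 20 weeks than 7 days on FEN-HFD, and 1 to 2 on HFD. Over all genes the ranges were 16 to 203 higher and 20 to 221 lower for FEN-HFD against HFD at 20 weeks, 7 to 14 higher and 0 to 4 lower at 7 days, 0 to 6 higher and 0 to 9 lower in the interaction, 48 to 269 higher and 9 to 217 lower between durations on FEN-HFD, and 340 to 598 higher and 128 to 380 lower between durations on HFD. At 20 weeks the fewest calls came without FEN-HFD mouse 21 and the most without mouse 29. The log2 fold changes that changed sign ranged from −0.15 to 0.051 for Rxra at 20 weeks. At 7 days they ranged from −0.052 to 0.058 for Ncor1, −0.14 to 0.035 for Rxra, −0.051 to 0.13 for Rxrb and −0.18 to 0.077 for Rxrg. In the interaction they ranged from −0.023 to 0.091 for Ncor1, −0.12 to 0.15 for Rarb, −0.078 to 0.14 for Rxra and −0.19 to 0.033 for Trim24. Between durations they ranged from −0.069 to 0.11 for Rarb, −0.024 to 0.22 for Rarg and −0.086 to 0.069 for Rxrb on FEN-HFD, and from −0.040 to 0.039 for Rara and −0.10 to 0.15 for Rarb on HFD.

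With 4 mice a group, precision was lowest for Rarg at 20 weeks (77 to 140 counts per library in FEN-HFD and 86 to 139 in HFD, interval 0.12 to 1.04) and for Rxrg at 7 days (99 to 123 counts in FEN-HFD and 100 to 118 in HFD, interval −0.40 to 0.36).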
